A study of Mus musculus with 2 samples.

Results

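The genes followed here in fetal thymic stromal cells belong to the glucocorticoid response and are Klf15, Klf9, Fkbp5, Tsc22d3, Per1, Zbtb16, Sgk1, Nr3c1, Hsd11b1 and Cyp11a1. The set was chosen by the ratio of Klf15, a transcription factor with one of the highest ratios of RTOC over 2D culture on these arrays, and the others were added as genes of the same hormone pathway. Of these 10 genes, 9 had at least 1 probe, 20 probes in all, among the 19505 genes that could be named on the arrays. Zbtb16 matched no probe by name or accession and is not analysed here. The cells came from C57BL/6 mouse fetuses of embryonic stage E14.5 or E15.5. Thymic lobes were first kept in organ culture for 8 days (E14.5) or 9 days (E15.5) with 1.35 mM deoxyguanosine, a nucleoside toxic to developing lymphocytes, and were then dispersed with trypsin. The stromal cells were either placed as a dense aggregate on a membrane, which is reaggregation thymus organ culture (RTOC), or plated on a flat dish, the 2D culture, and both were kept for 72 h. Each of 2 dual-colour arrays held RNA of both cultures of one stage, with 2D culture in Cy3 and RTOC in Cy5. The dyes were not swapped on either array, so a dye effect of a probe and the effect of the culture cannot be told apart, nor can stage, days of organ culture and array. The sources used here name no glucocorticoid or receptor antagonist added to either culture, and the medium held fetal bovine serum, whose steroid content is not given in them.

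Glucocorticoids are steroid hormones that enter the cell and bind the glucocorticoid receptor, which then moves to the nucleus and binds response elements in DNA. The receptor raises some genes directly and lowers many inflammatory genes, partly through other transcription factors. Local exposure also depends on enzymes, since 11β-hydroxysteroid dehydrogenase type 1 turns the inactive 11-keto steroid into the active hormone and the side-chain cleavage enzyme starts steroid synthesis from cholesterol. The thymus is a classic target of these hormones, because immature thymocytes die when exposed to them, and thymic epithelial cells have been described as a local source of steroid. Klf15 is a Krüppel-like zinc-finger factor that is induced by the receptor in several tissues and controls amino acid, lipid and glucose metabolism.

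Sequences of Klf15, the gene by which the set was chosen, are shown first. Klf15 was read by 2 probes that gave different ratios. One lies in the coding sequence and spans the end of a zinc finger, as read in a frame without a stop codon. Capitals mark the codons of its 2 zinc-binding histidines.

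Klf15 probe (dimmer of the pair): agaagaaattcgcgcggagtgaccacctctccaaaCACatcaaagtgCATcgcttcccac

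The other Klf15 probe, the brighter one, held a stop codon in all 3 forward frames and so is not wholly coding. The promoter of Klf15 is shown because it held more matches to the E-box CACGTG, the site of clock and Myc-type factors, than any other member window searched. Promoter windows of RefSeq (GRCm38.p6, from 250 bases before to 50 bases after a transcription start) were taken for 8 of the 10 genes. Zbtb16 had none, and Nr3c1 was left out of this search. There were 17 windows in all, and those shown are printed to base 30 after the start. The windows were searched on both strands for the glucocorticoid response hexamer AGAACA, for the palindromic element GNACA followed by any 3 bases and TGTNC, for CACGTG and for the Krüppel-like factor type site CACCC. Capitals mark every match to any of them.

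Klf15 promoter, chr6:90462326-90462605, plus strand: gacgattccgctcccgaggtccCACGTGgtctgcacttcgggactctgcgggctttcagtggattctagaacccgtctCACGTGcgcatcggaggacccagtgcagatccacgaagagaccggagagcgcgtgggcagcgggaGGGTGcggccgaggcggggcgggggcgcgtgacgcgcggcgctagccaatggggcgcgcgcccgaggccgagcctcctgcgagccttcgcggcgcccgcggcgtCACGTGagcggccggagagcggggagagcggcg

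Sgk1 promoter 5 of 6, chr10:21993640-21993919, plus strand: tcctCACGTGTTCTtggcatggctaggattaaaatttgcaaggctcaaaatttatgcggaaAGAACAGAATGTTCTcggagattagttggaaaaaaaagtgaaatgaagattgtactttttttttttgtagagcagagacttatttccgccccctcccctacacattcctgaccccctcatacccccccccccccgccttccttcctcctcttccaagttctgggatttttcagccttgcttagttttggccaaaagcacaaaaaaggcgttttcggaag

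Tsc22d3 promoter 3 of 3, chrX:140600493-140600772, minus strand: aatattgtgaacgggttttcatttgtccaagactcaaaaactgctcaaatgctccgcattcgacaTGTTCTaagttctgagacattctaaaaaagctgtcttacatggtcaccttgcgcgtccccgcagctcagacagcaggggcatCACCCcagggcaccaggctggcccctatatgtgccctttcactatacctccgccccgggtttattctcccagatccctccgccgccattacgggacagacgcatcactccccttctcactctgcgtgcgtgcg

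The Klf15 window held 3 E-boxes, of which one lay across the start itself, 1 CACCC-type match and no match to the hexamer or to the palindrome. The E-box was present in 7.15% of all 32851 promoter windows of the table. This is not a like baseline, since CACGTG holds a CG and the Klf15 window was rich in them. It had 73.3% GC and 47 CG, against medians of 52.7% and 7 over all windows. The fifth Sgk1 window is shown for its palindromic element, at -188 to -176 relative to the start, which was the only one found in the 17 windows and which 0.475% of all windows held. It overlapped 2 of the 3 hexamers there, and the remaining hexamer overlapped an E-box. The third Tsc22d3 window held 1 hexamer at -185 to -180. Hexamers were found in 4 windows of 2 genes, Sgk1 and Tsc22d3, against 19.0% of all windows, and CACCC-type matches in 10 windows of 7 genes, against 57.5%. E-boxes lay in 4 windows of 4 genes, Klf15, Fkbp5, Per1 and Sgk1. A match describes letters in a window, and nothing is drawn from it about binding.

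**Figure D1:**
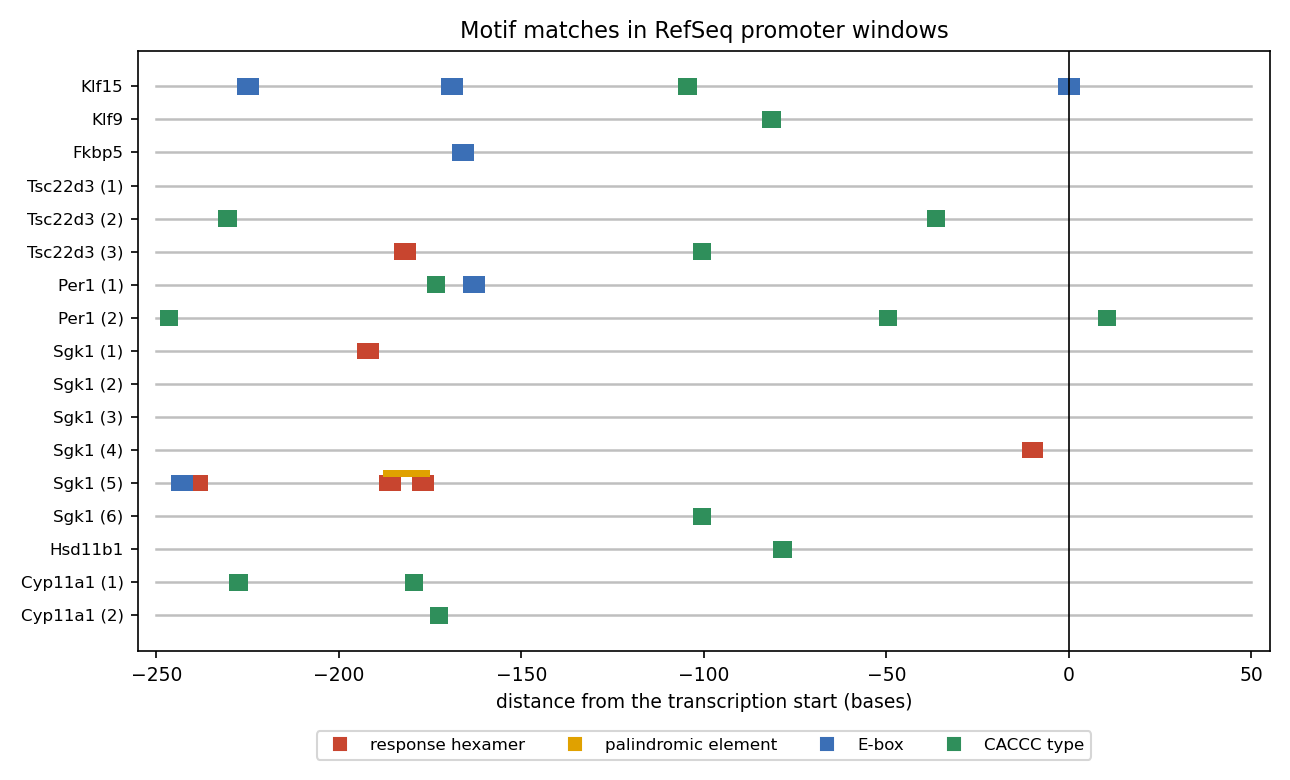
Motif matches in the promoter windows of the members, with distance from the transcription start in bases on the horizontal axis and 1 row for each window, numbered by position on the chromosome where a gene has several. Coloured boxes mark matches on either strand. Klf15 carries 3 E-boxes and the only palindromic element lies in the fifth Sgk1 window.

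On the arrays, signal intensities were quantile normalised over the 4 channels and are given as normalised intensity, and ratios as log2 of RTOC over 2D culture. Between 53.1% and 60.9% of all probes were well above background in a channel. A gene with several probes is represented by the brightest. The other probes are given for members, and for list genes printed with a p-value where they turn the sign or move the fold by over 1.5 times. Of the 9 genes, 8 could be evaluated among 13506 genes, and for 17 of the 20 probes the signal was well above background in every channel. Cyp11a1, which encodes the side-chain cleavage enzyme, was not well above background with either probe in any channel and has no ratio. The second Sgk1 probe was also not well above background in any channel. The members did not move as a group. On both arrays 3 of the 8 were higher and 3 were lower in RTOC, and 2 changed sign between the arrays. By the limma threshold (adjusted p under 0.05) 3 members were past it in the higher direction, beside 15.4% of all genes tested, and 2 in the lower direction, beside 12.7%, and nothing is read from these counts because the contrast itself chose the set. With normexp background correction and median centring 76.0% of all calls were higher, against 54.8% here, and the median ratio of all genes moved from 0.00 to 0.14.

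**Figure D2:**
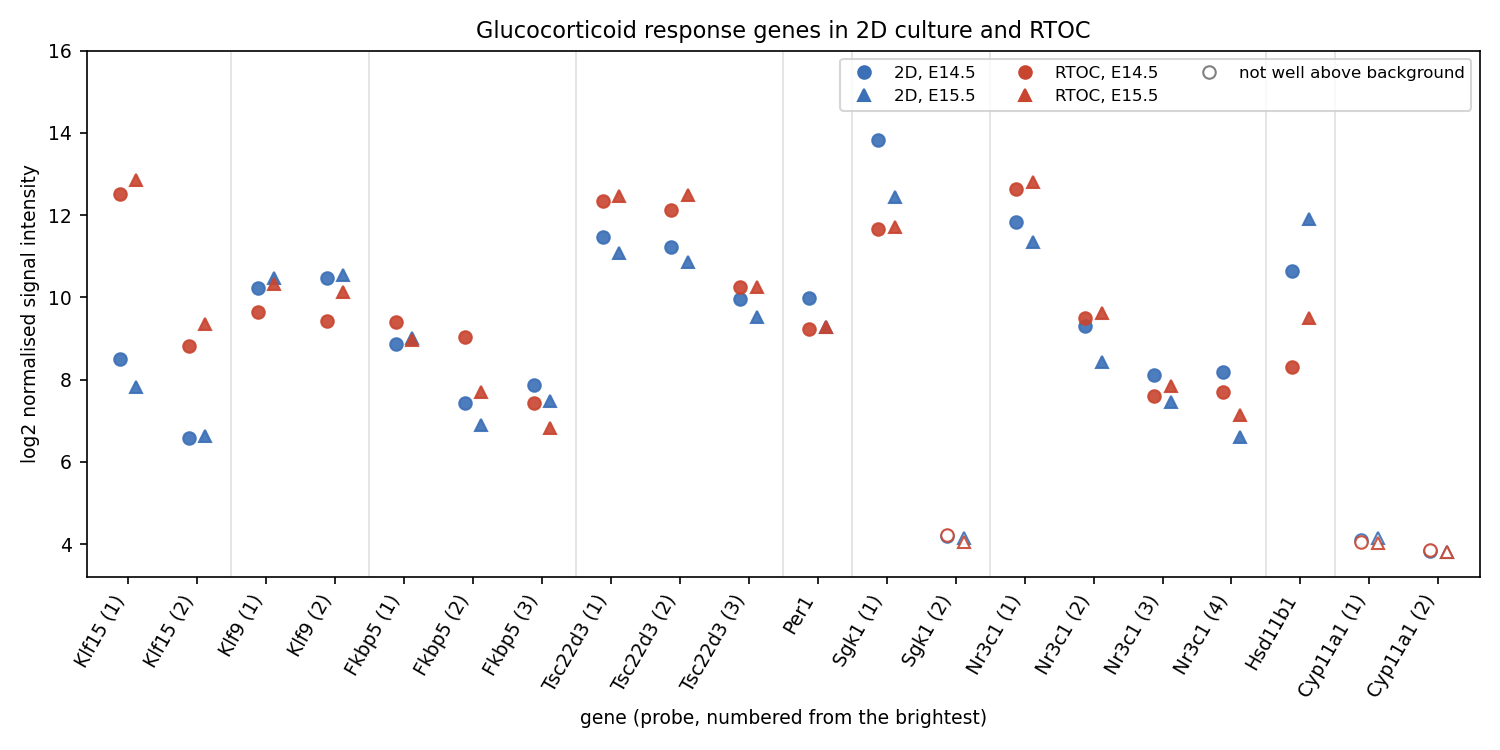
Normalised signal intensity (log2) of every member probe in the 4 channels, with probes of a gene numbered from the brightest. Blue marks 2D culture, red RTOC, circles E14.5 and triangles E15.5, and open symbols are not well above background. The red symbols of Klf15 stand far above the blue ones, those of Hsd11b1 and Sgk1 lie below, and Cyp11a1 lies at background in all channels.

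Klf15, the gene that chose the set, is described first. Its brighter probe had a normalised intensity of 364 (E14.5) and 226 (E15.5) in 2D culture and of 5893 and 7382 in RTOC. Both RTOC values were far above both 2D values. The log2 ratios were 4.02 and 5.03, averaging 4.52 ± 0.72 (SD, n = 2 arrays), or 23.0-fold. The coding probe read 95.4 and 98.7 in 2D culture and 450 and 658 in RTOC, with log2 ratios of 2.24 and 2.74. Its mean of 2.49 ± 0.35 (SD, n = 2 arrays) was 5.61-fold. The direction was thus the same with both probes, while their means lay 2.04 apart on the log2 scale, a range that 2.23% of the 5377 genes with several evaluated probes reached or passed. After normexp background correction and loess the fold of the brighter probe was 8.38 and that of the coding probe 1.93, so the size of the Klf15 difference depended on the processing, and which of its steps made the difference was not tested. Of the other genes 40 had a mean ratio at or above that of Klf15, and 21 of these were well above background in every channel. By background correction with normexp and loess there were 54 such genes.

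Klf9, a related zinc-finger factor that is a common early target of the receptor, did not follow Klf15. Its brighter probe read 1205 (E14.5) and 1426 (E15.5) in 2D culture and 805.9 and 1274 in RTOC. The log2 ratios of -0.58 and -0.16 averaged -0.37 ± 0.30 (SD, n = 2 arrays), and the ranges of the 2 cultures overlapped. The second Klf9 probe had -1.05 and -0.41, so that all values of the gene were below 0.

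Tsc22d3 and Per1, both known for fast induction by glucocorticoid, differed from each other. Tsc22d3 (GILZ, an inhibitor of inflammatory signalling) read 2830 and 2183 in 2D culture and 5218 and 5659 in RTOC with its brightest probe. The RTOC values lay above the 2D values on both arrays, with log2 ratios of 0.88 (E14.5) and 1.37 (E15.5) that averaged 1.13 ± 0.35 (SD, n = 2 arrays), or 2.19-fold. The other 2 probes had means of 1.27 and 0.52, the first of them at nearly the same intensity as the brightest. Per1, a repressor of the circadian clock, read 1021 and 619 in 2D culture and 605 and 624 in RTOC. Its level in RTOC was nearly the same on both arrays, and only the E14.5 value in 2D culture stood apart. The log2 ratios were -0.75 (E14.5) and 0.01 (E15.5), averaging -0.37 ± 0.54 (SD, n = 2 arrays).

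Fkbp5, a co-chaperone that lowers the hormone affinity of the receptor and is itself induced by it, gave values that depended on the probe. The brightest read 469 and 516 in 2D culture and 681 and 503 in RTOC, with log2 ratios of 0.54 (E14.5) and -0.04 (E15.5) that averaged 0.25 ± 0.41 (SD, n = 2 arrays). A second probe had 1.61 and 0.81, and the third -0.44 and -0.65. The 3 means, 0.25, 1.21 and -0.55, therefore differed in sign, and their range of 1.75 was reached by 4.52% of the genes with several probes. No single direction can be given for Fkbp5.

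Sgk1, a kinase that controls ion transport, was lower in RTOC. It read 14552 (E14.5) and 5549 (E15.5) in 2D culture and 3242 and 3329 in RTOC. The level in RTOC hardly differed between the arrays, whereas in 2D culture it was 2.62-fold higher at E14.5 than at E15.5. The log2 ratios were -2.17 and -0.74, averaging -1.45 ± 1.01 (SD, n = 2 arrays), the widest spread between arrays of the 8 members. A difference between arrays at least as large was found for 6.02% of all genes.

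Nr3c1 encodes the receptor itself. Its brightest probe read 3622 and 2621 in 2D culture and 6323 and 7116 in RTOC. The log2 ratios of 0.80 (E14.5) and 1.44 (E15.5) averaged 1.12 ± 0.45 (SD, n = 2 arrays), or 2.18-fold, with both RTOC values above both 2D values. This probe is annotated to a sequence record outside RefSeq, and the other 3 to a RefSeq transcript. Those 3 had means of 0.70, -0.05 and 0.04, and the last 2 were below 0 at E14.5 and above 0 at E15.5. The higher level in RTOC was thus seen on both arrays with 2 of the 4 probes, and the median over the 4 was 0.37. All 4 ratios were higher at E15.5 than at E14.5.

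Hsd11b1, the gene of the activating 11β-hydroxysteroid dehydrogenase type 1, was the member with the most even ratio after quantile normalisation. It read 1586 (E14.5) and 3850 (E15.5) in 2D culture and 316 and 726 in RTOC. Both cultures were brighter on the E15.5 array, 2.43-fold in 2D culture and 2.30-fold in RTOC, and the ratio stayed near -2.33 and -2.41. The mean was -2.37 ± 0.06 (SD, n = 2 arrays), which is 5.15-fold lower in RTOC, or 3.04-fold with normexp and loess. With normexp and loess the ratios were -1.38 (E14.5) and -1.83 (E15.5), so the evenness depended on the processing. Hsd11b1 was represented by a single probe. Klf15 and Hsd11b1 were the 2 members with at least a 2-fold difference on both arrays, in opposite directions.

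**Figure D3:**
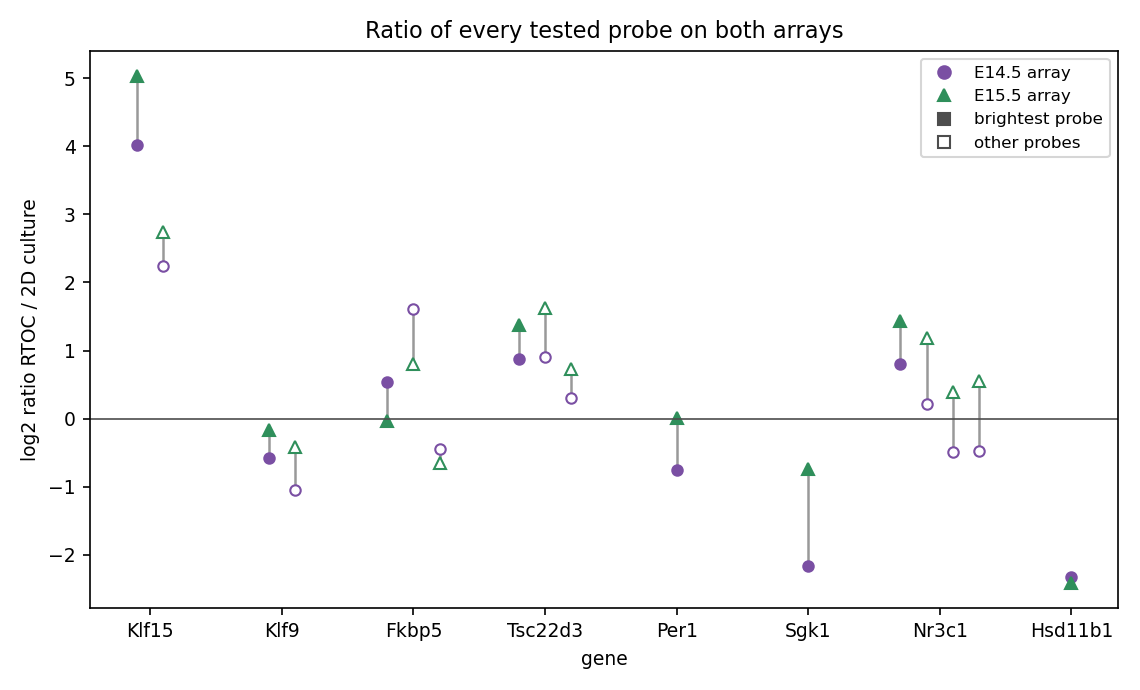
Log2 ratio of RTOC over 2D culture for each of the 17 evaluated member probes, with E14.5 as circles, E15.5 as triangles, a line joining the 2 arrays and the brightest probe filled. Probes of Klf15 and of Tsc22d3 keep their sign, while those of Fkbp5 and Nr3c1 fall on both sides of 0.

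Across the arrays, 6 of the 8 members had a higher ratio at E15.5 than at E14.5, and Fkbp5 and Hsd11b1 had a lower one. Over all genes 51.5% had a higher ratio at E15.5. The median size of the difference was 0.39 on the log2 scale over all genes, and it was 1.01 for Klf15, 1.43 for Sgk1, 0.77 for Per1 and 0.08 for Hsd11b1. With normexp and loess the 2 ratios of Hsd11b1 lay further apart, at -1.38 and -1.83. With 1 array for each stage these differences have no replicate and were not tested. Opposite signs on the arrays, as for Fkbp5 and Per1, were found for 20.4% of all genes.

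**Figure D4:**
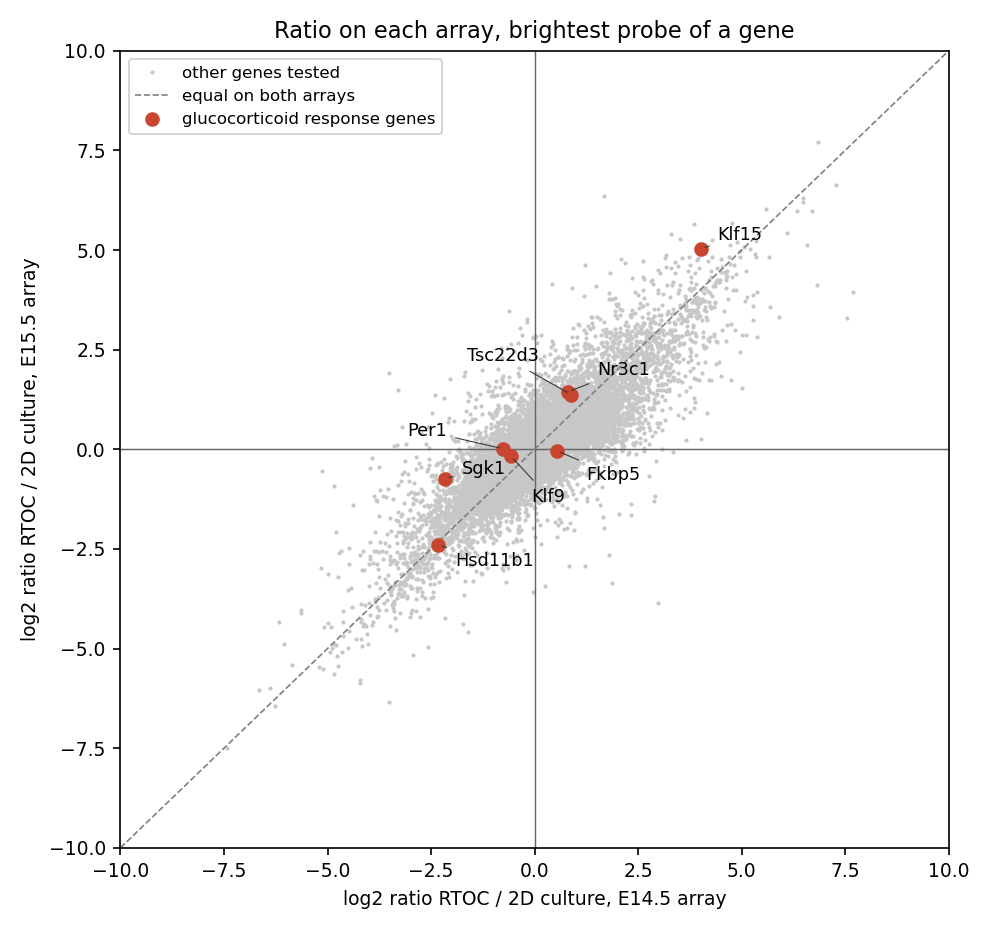
Log2 ratio of RTOC over 2D culture on the E14.5 array (horizontal) and on the E15.5 array (vertical) for 13506 genes in grey and the 8 members in red, with the dashed line marking equal ratios. Klf15 lies at the upper end of all genes, Hsd11b1 and Sgk1 on the lower side, and Klf9, Per1 and Fkbp5 close to the centre.

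The genes whose ratios on the 2 arrays lay nearest to those of Klf15, by the distance between the pairs of log2 ratios among genes well above background in every channel, were Lum, Ces1d, Ifi27l2a, Abat and Shisa2, at distances of 0.34, 0.55, 0.60, 0.68 and 0.71. Lum encodes a proteoglycan of the extracellular matrix, Ces1d a carboxylesterase and Abat the aminotransferase of the transmitter GABA. Their mean ratios ran from 4.37 (Ifi27l2a) to 4.75 (Shisa2), and likeness over 2 arrays shows no more than a similar ratio on both.

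To place the members in their pathway, 7 lists without the members were counted, 119 genes evaluated of 147 listed. Of them 20 were higher and 34 lower in RTOC by limma, 16.8% and 28.6%, beside 15.4% and 12.7% of all genes.

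Most genes that make or activate steroids did not pass the threshold. Of 19 genes 10 were evaluated, 1 was higher, 2 were lower and 7 did not pass, and the median log2 ratio was 0.02, beside 0.00 over all genes. Fdxr, the reductase that feeds electrons to mitochondrial P450 enzymes, read 525 and 700 in 2D culture and 2081 and 1864 in RTOC, and was higher by 1.70 ± 0.41 (SD, n = 2 arrays, limma adjusted p = 0.0108). Tspo, a mitochondrial membrane protein, fell by 2.42 on the log2 scale (limma adjusted p = 0.00458). Por, which gives electrons to microsomal P450 enzymes, fell by 0.94 (limma adjusted p = 0.0469), and its call was lost with median centring and without the pairing of channels. No evaluated probe was found for Star (cholesterol transport), Cyp11b1 (the last step to corticosterone) or Hsd11b2 (inactivation of the hormone).

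Most chaperones and co-regulators of the receptor did not pass the threshold. Of 21 genes 1 was higher, 2 were lower and 18 did not pass, with a median of -0.22. On both arrays 10 of the 21 genes were below 0 and 3 above it. Of the chaperone complex Hsp90ab1 and Fkbp4 had mean ratios of 0.03 and 0.03, Hsp90aa1 -0.72 and St13 -0.62. The co-activator Ncoa2 was higher by 1.03 ± 0.31 (SD, n = 2 arrays, limma adjusted p = 0.0389), but its second probe had a mean of -0.04. The co-chaperone Stip1 fell by 0.93 (limma adjusted p = 0.045) and the Mediator subunit Med14 was 2.46-fold lower (limma adjusted p = 0.0174). The calls of Ncoa2, Stip1 and Med14 were all lost with normexp and median centring.

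Genes known as induced by glucocorticoid split in both directions. Of 40 genes 35 were evaluated, 9 were higher, 10 were lower and 16 did not pass, with a median of 0.08. The sodium channel subunit Scnn1a read 395 and 900 in 2D culture and 5560 and 7880 in RTOC, and was 11.1-fold higher (log2 3.47 ± 0.48, SD, n = 2 arrays, limma adjusted p = 0.00221). Sesn1, a stress-induced regulator of mTOR, was 6.53-fold higher (limma adjusted p = 0.00299), and the cell cycle inhibitor Cdkn1c 5.32-fold higher (limma adjusted p = 0.006). In the other direction Anxa1, the anti-inflammatory annexin, read 127140 and 200739 in 2D culture and 11344.5 and 9364 in RTOC and fell by 3.95 on the log2 scale (limma adjusted p = 0.00209). Cdkn1a, another cell cycle inhibitor, was 7.27-fold lower (limma adjusted p = 0.00233), and the lipid transporter Mfsd2a 4.14-fold lower (limma adjusted p = 0.00527). Dusp1 and Errfi1, both early induced feedback inhibitors, fell by 1.21 and 1.75 on the log2 scale. Mt2, Pdk4, Tgm2, Map3k6 and Bcl2l1 were past the threshold and lower too. Past it in the higher direction were Glul, Rgs2, Lpin1 and Birc3, with mean log2 ratios of 2.38, 2.27, 1.86 and 1.51. The 2D signal of Trim63 and Igfbp1, also past the threshold, was not well above background on either array, and their bounds were at least 1.79-fold and 1.92-fold higher in RTOC.

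Genes known as repressed by glucocorticoid were mostly lower or not past the threshold. Of 26 genes 20 were evaluated, 10 were lower, 2 were higher and 8 did not pass, with a median of -0.83. Il6 was not well above background in RTOC on either array and was at least 11.9-fold lower (limma adjusted p = 0.00161), and Csf2 likewise at least 3.08-fold lower (limma adjusted p = 0.00161). Ptgs2, the inducible cyclooxygenase, read 15293 and 3535 in 2D culture and 184 and 55.2 in RTOC, a log2 ratio of -6.19 ± 0.27 (SD, n = 2 arrays, limma adjusted p = 0.00161). That is 73.0-fold lower, but with normexp and loess the log2 ratio of Ptgs2 was -3.65, or 12.5-fold lower. The cytokine genes Tslp and Il11 fell by 3.57 (limma adjusted p = 0.00262) and by 3.16 (limma adjusted p = 0.002). The chemokine Cxcl10 and the adhesion molecule Vcam1, both of this list, were higher by 2.57 ± 1.56 (SD, n = 2 arrays, limma adjusted p = 0.0212) and 2.81 ± 1.37 (SD, n = 2 arrays, limma adjusted p = 0.0125). The second probe of Vcam1 had a mean of 1.41 and that of Ptgs2 -7.81. With normexp and loess the median of the list was -0.16, and the calls of Tslp and Cxcl10 were lost. With normexp and median centring the 10 lower calls became 6, Tslp among those lost, and the higher call of Vcam1 was lost too. Without the pairing of channels the 10 lower calls became 4, with Tslp and Il11 among those lost.

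Of the other Krüppel-like factors 13 of 15 were evaluated, 6 were lower, 1 was higher and 6 did not pass, with a median of -0.97, so that Klf15 stood at the opposite side from most of its family. Klf10, an early gene of TGF-β signalling, fell by 2.09 (limma adjusted p = 0.00977). Klf6 fell by 1.55 (limma adjusted p = 0.0144), a call lost with normexp and median centring, under which the 6 lower calls of the family became 2. Klf4, a factor of epithelial differentiation, read 55271 (E14.5) and 13475 (E15.5) in 2D culture and 6612 and 6158 in RTOC, so that, as for Sgk1, it was the 2D level that differed between the arrays. Its mean ratio was -2.10 ± 1.37 (SD, n = 2 arrays, limma adjusted p = 0.0284), a call that was lost with normexp. The family member past the threshold in the higher direction, Klf14, had a 2D signal not well above background on either array and a bound of at least 1.23-fold.

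Metabolic genes described as targets of Klf15 did not follow it as a list. Of 13 genes 11 were evaluated, 3 were higher, 2 were lower and 6 did not pass, with a median of 0.04. Slc2a4, the insulin-dependent glucose transporter, read 511 and 524 in 2D culture and 3578 and 4983 in RTOC, 8.16-fold higher (log2 3.03 ± 0.31, SD, n = 2 arrays, limma adjusted p = 0.00233). Bckdhb, a subunit of the branched-chain keto acid dehydrogenase, was 5.01-fold higher (limma adjusted p = 0.00351), while Bckdha and Bcat2 of the same pathway had mean ratios of 0.49 and 0.04. The aminotransferase Gpt2 fell by 1.05 (limma adjusted p = 0.0315) and the proline dehydrogenase Prodh by 0.92 (limma adjusted p = 0.0454). The call of Prodh was lost in 6 of the limma alternatives, and that of Gpt2 with median centring and without the pairing of channels.

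In the circadian clock list 13 of 17 genes were evaluated, 4 were higher, 2 were lower and 7 did not pass, with a median of 0.31, or 0.16 with the 1 gene dim in a culture at its bound. The output factors Dbp and Tef, both of the PAR bZIP family, were 5.23-fold (limma adjusted p = 0.00323) and 3.81-fold higher (limma adjusted p = 0.00709). The other Tef probes had means of 0.54 and 2.58, against 1.93 for the brightest. Higher too was the nuclear receptor Nr1d2, by 2.20-fold (limma adjusted p = 0.0315). Nfil3, a repressor that competes with Dbp for the same sites, fell by 1.32 (limma adjusted p = 0.017), and Bhlhe40, a repressor of E-box genes, by 1.72 (limma adjusted p = 0.00859). The calls of Nr1d2 and Bhlhe40 were lost without the pairing of channels, and that of Nr1d2 also with normexp and median centring. The core genes Clock, Arntl and Per2 had mean ratios of 0.03, -0.18 and -0.50, next to -0.37 for Per1.

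**Figure D5:**
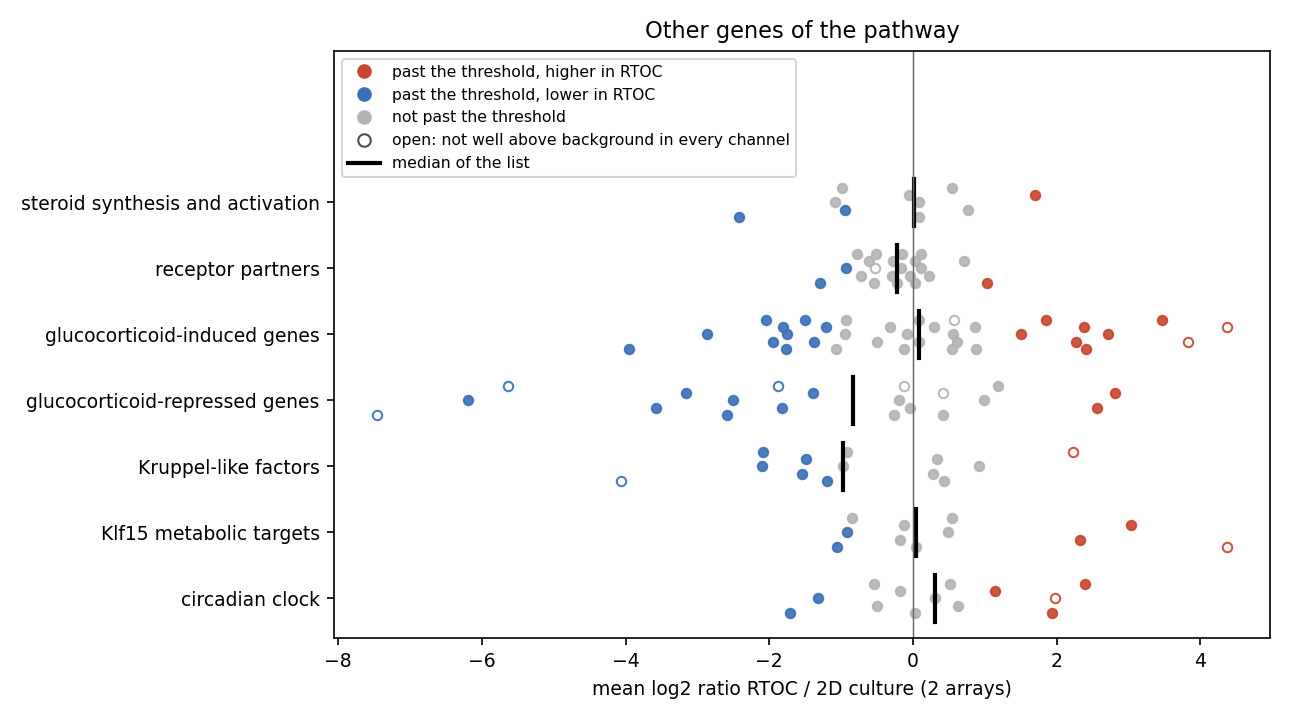
Mean log2 ratio of RTOC over 2D culture (2 arrays) for each evaluated gene of the 7 lists, red where past the limma threshold and higher, blue where lower, grey where not past it, open where not well above background in every channel, with the black bar at the median of the list. Repressed genes and Krüppel-like factors have medians of -0.83 and -0.97, and induced genes spread to both sides of 0.

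Cell type markers also differed between the cultures. In bulk RNA fewer cells of a type and less RNA per cell cannot be told apart. Thymic epithelium markers were measured in all 11 of 11 cases in every channel, and 7 were higher in RTOC and 1, Krt14, was lower. The 3 not past the threshold were Epcam, Krt8 and Krt18, with mean log2 ratios of -0.70, 0.28 and 0.69. The summed normalised intensity of the 11 markers was 288613 to 591436 in 2D culture and 1065880 to 1072830 in RTOC. Ccl25 alone read 1750 and 1892 in 2D culture and 269914 and 188831 in RTOC with its brightest probe, a mean log2 ratio of 6.96. The other Ccl25 probes had means of 4.34 and 0.78. Of 9 adipocyte markers, cells in which Klf15 is abundant, 5 to 6 per 2D channel and 5 to 8 per RTOC channel were well above background, 4 of 5 evaluated were higher and none lower, and the sum was 4176 to 8058 in 2D culture and 62369 to 91120 in RTOC. Most of the RTOC sum came from Fabp4, which read 24634 (E14.5) and 39337 (E15.5), and Lpl, which read 32170 and 42765. Fabp4 and Lpl were 20.4-fold (limma adjusted p = 0.00428) and 16.2-fold higher (limma adjusted p = 0.0036). Their other probes had mean log2 ratios of 3.72 and 3.57 for Fabp4 (4.35 for the brightest) and 2.53 for Lpl (4.02 for the brightest). Plin4 did not pass the threshold, with ratios of -0.20 (E14.5) and 1.01 (E15.5). Adipoq, Plin1 and Cidec, which mark mature fat cells, were well above background in RTOC at E15.5 (Adipoq also in 2D culture at E15.5) but in neither culture at E14.5, and so were not evaluated. On the E15.5 array Adipoq read 83.5 in 2D culture and 1688 in RTOC. Lep was not well above background in any channel. Smooth muscle markers ran the other way, with 3 of 4 evaluated lower and sums of 489220 to 562035 in 2D culture against 37271 to 60933 in RTOC. Fibroblast markers were split, 3 higher and 4 lower of 8, with sums of 330766 to 431114 and of 272544 to 291534. Endothelial markers (5 of 6 higher), macrophage markers (4 of 6) and T cell markers (3 of 5) had none past the threshold in the lower direction. In that order, their sums in 2D culture were 678 to 1596, 56637 to 68070 and 1474 to 1707. The sums in RTOC were 7614 to 10630, 178485 to 220851 and 3506 to 5674. The macrophage markers not past the threshold were Itgam, lower on both arrays with a mean ratio of -0.61, and Cd68, with 0.61. In 2D culture 4 endothelial markers were not well above background on either array. With dim genes at their bound the endothelial median was 1.53, against 3.11, and the T cell median 0.39, against 1.88. With signal well above background required in every channel, 1 endothelial, 4 macrophage and 1 T cell marker (Ptprc) were higher. The T cell markers Cd3e and Lck had mean ratios of -0.08 and 0.30. The part of these cell types in the ratios of Klf15, Hsd11b1 and the other members was not tested.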

How the data were processed

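RNA of 2 cultures of mouse fetal thymic stromal cells, RTOC in Cy5 and 2D culture in Cy3, was hybridised to 2 Agilent arrays, one for E14.5 and one for E15.5. The authors extracted spots with Feature Extraction (version 11.5.1.1 in the submitters' processing notes, another in the file headers), and the deposited scanner files give for each spot an intensity of the mean signal and its local background, and a processed intensity after background subtraction and dye normalisation. The deposited series table holds the log10 ratio of the processed signals (largest difference 5e-10), with column medians of -0.0741 (E15.5) and -0.0191 (E14.5). The methods state quantile normalisation and name no test for arrays.

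Here, control and outlier spots were left out, processed signals were quantile normalised over the 4 channels, and replicate spots were averaged. The 41174 probes took their gene names from RefSeq tables, 22951 through a RefSeq accession, 6659 through a symbol and 3109 through an older symbol (GRCm38.p6), and 8455 kept the name in the files. The 23685 probes that were well above background on each array, in 1 channel or both, were fitted with limma 3.58.1 (R 4.3.3), using an intercept per probe and moderated variances. Two-sided p-values were adjusted by Benjamini and Hochberg's method and called under 0.05. Only 1 residual degree of freedom was left, so the moderated spread comes mostly from other probes. The labels do not say that the arrays came from separate pools of fetuses, so the p-values measure the spread between these 2 arrays, which differ in stage. A probe dim in 1 culture on both arrays is given as at least N-fold, from normexp (offset 50), loess and Aquantile values against the lowest signal well above background. The fit was tested on simulated data, where it called large changes but made more false calls than the threshold states. Far fewer probes were changed there than were called here, so that share of false calls does not carry over. Calls near the threshold are taken as weak.

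The members and lists were chosen with earlier results of these data known, so members have no p-value. Named list genes are the up to 3 highest and 3 lowest past the threshold and well above background in every channel, and up to 2 with a bound of at least 2. Other genes named are for context and were chosen after their values were seen. Alternatives were normexp with loess or median centring, no quantile normalisation, no or a stricter filter, leaving out each array, no replicate block, a trended and robust eBayes, the methods' t-test (used in the study for other assays), and the median of all probes.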

Additional observations from a re-analysis of the deposited data

Results flagged for a closer look

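Fkbp5 and Per1 were singled out because their brightest probes, well above background in every channel, had ratios of RTOC over 2D culture of opposite sign on the 2 arrays. For Fkbp5 the log2 ratio was 0.54 at E14.5 and -0.04 at E15.5, a difference (E15.5 minus E14.5) of -0.58. For Per1 it was -0.75 at E14.5 and 0.01 at E15.5, a difference of 0.77. In both genes the E15.5 ratio was close to 0. With a single array for each stage the differences were not tested, and 33.4% and 22.1% of all genes differed by at least as much between the arrays.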

How the results depend on the processing

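Counts past the threshold are given as higher and lower. The main counts were 3 and 2 for the members, 20 and 34 for the pathway list genes and 2081 and 1714 for all genes. With normexp and loess the members had 1 lower and all genes 1130 lower. With normexp and median centring the members had 1 and 1 (Klf15 and Hsd11b1), the pathway list genes 18 lower and all genes 487 lower. With no filter on dim probes and with adjusted p-values of the methods' t-test every count was 0, at 5642 and 2053 genes with an unadjusted p under 0.05, against 5588 in limma with the filter. By the methods' t-test unadjusted, the members had 0 and 1, the pathway list genes 9 and 13 and all genes 1003 and 1050. With no replicate block (the 4 channels as 2 against 2 samples) the members had 1 lower, the pathway list genes 18 lower and all genes 1326 and 988. The cause was not tested. The other 32 of the 60 alternative counts for these groups stayed within 1.5 times, a rule that also passes 2 higher members in place of 3. Over 10 alternative tests the call was kept in 8 for Hsd11b1, 7 for Klf15 and 6 for Tsc22d3. It was kept in 4 for Sgk1 and 4 for Nr3c1. Among the member means, no sign of a member past the threshold turned over under the 9 alternatives for values. Of these, no filter, a stricter filter and no replicate block left every member mean unchanged and so could not turn a sign. Leaving out an array gave only the ratio on the other array, as printed for each member above. Klf15 ran from 3.07 (normexp and loess) to 5.03, Hsd11b1 from -2.41 to -1.44, Sgk1 from -2.17 to -0.74, Tsc22d3 from 0.88 to 1.37 and Nr3c1 from 0.37 (median of its probes) to 1.44. The signs of Fkbp5 and Per1 turned with the E14.5 array left out. With 1 array left out no test was made, because 1 array leaves no residual degrees of freedom. Genes dim in 1 culture on both arrays have only a bound on their fold.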
